A study of Mus musculus with 12 samples.

Results

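Interferon receptors, Stat2 and interferon regulatory factors were followed through growth factor-induced quiescence in adult mouse neural stem cells (NSCs). The 9 genes were Ifnar1, Ifnar2 and Ifngr1 (receptor chains), Stat2 (a signal transducer) and Irf1, Irf2, Irf3, Irf7 and Irf9 (interferon regulatory factors). They were taken by symbol from the 17365 genes of the count table, and all 9 were among the 13312 genes that passed the filter on low counts. RNA was sequenced from 12 bulk libraries of NSC cultures that had been derived from the subventricular zone of mice aged 6 to 8 weeks. There were 2 lines, ANS4 from the MF1 strain and BL6 from C57BL/6, with 2 replicate libraries of each line in each of 3 conditions, so that line and strain cannot be told apart.

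In EGF/FGF, the proliferative condition, cells received EGF and FGF2. In BMP they received BMP4, which the study uses to induce a deep quiescence, and in BMP/FGF they received BMP4 together with FGF2, used to induce a shallower, primed quiescence. Each factor was given at 10 ng/ml and the BMP and BMP/FGF treatments lasted 3 days. Cells of all groups grew without serum, with N2, B27 and laminin-1 at 1 µg/ml. The labels name no interferon among the factors. The study calls the replicates biological, but the sources used here do not say whether they were separate cultures, so p-values measure the spread between these libraries, which may be technical.

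Type I interferons bind a receptor made of Ifnar1 and Ifnar2, and interferon gamma binds a receptor made of Ifngr1 and Ifngr2. Both receptors act through Janus kinases, which phosphorylate Stat proteins. Stat2 and Irf9 are parts of the complex ISGF3, which binds interferon-stimulated response elements (ISREs), whereas the response to interferon gamma runs mainly through gamma-activated sites (GAS). Irf1 and Irf7 are both interferon-induced activators, Irf3 is activated by phosphorylation after nucleic acid sensing, and Irf2 can oppose Irf1 at shared sites.

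The genes lie on 6 chromosomes of GRCm38 (mm10). Ifnar2 (chr16:91372783-91405589) and Ifnar1 (chr16:91485238-91507441) belong to a receptor cluster of 192.8 kb in which the receptor genes follow each other as Ifnar2, Il10rb, Ifnar1 and Ifngr2. Ifngr1 is on chromosome 10 (chr10:19591949-19610229), as is Stat2 (chr10:128270559-128292849). Irf1 lies at chr11:53770014-53778374, Irf2 at chr8:46739732-46847458 and Irf9 at chr14:55603571-55610030. Irf3 (chr7:44997648-45002848) and Irf7 (chr7:141262706-141266481, the only member on the minus strand) share chromosome 7. Some exons overlap those of a neighbour in the count table: Irf9 shares 123 exonic bases with Rnf31 on the same strand, Irf3 shares 88 with Bcl2l12 and Irf7 shares 45 with Phrf1, both on the opposite strand. The authors quantified transcripts with kallisto, which divides reads that fit several transcripts by estimation, so values of these genes carry that uncertainty, and no strand setting is given in the sources used here. Ifnar2 shares 315 exonic bases with Gm21970 on the same strand, and Irf1 shares 135 with Gm17334 on the opposite strand. Both neighbours are protein-coding but absent from the count table, and the sources do not say whether the quantification included them.

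RefSeq promoter windows (GRCm38.p6, 250 bases before to 50 after a start) were found for 9 of 9 members, 11 windows in all. They were searched on both strands for the ISRE-type letters GAAANNGAAA, found in 3.44% of 32851 mouse windows, and for the GAS-type letters TTCNNNGAA, found in 8.3%. The ISRE-type letters occurred in the windows of Stat2 and Irf2, and the GAS-type letters in those of Ifnar1 (across the start), Ifnar2, Irf1 and Irf2. The 4 stretches below are shown because they hold the matches that lie wholly before a start, on the plus strand, with the matching letters in capitals.
Ifnar2 (chr16:91372549-91372597): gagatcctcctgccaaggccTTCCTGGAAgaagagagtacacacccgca
Stat2 (chr10:128270256-128270305): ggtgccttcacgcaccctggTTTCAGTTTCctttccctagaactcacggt
Irf1 (chr11:53769904-53769952): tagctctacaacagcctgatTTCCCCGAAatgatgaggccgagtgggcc
Irf2 (chr8:46739495-46739549): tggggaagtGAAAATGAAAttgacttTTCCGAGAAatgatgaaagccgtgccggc
The Stat2 match is the ISRE-type motif read on the minus strand, those of Ifnar2 and Irf1 are GAS-type, and Irf2 holds both types, the ISRE-type match being the first. Neither set of letters was found in the windows of Ifngr1, Irf3, Irf7 or Irf9. A match is a description of the letters, and factor binding was not measured.

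Total counts ran from 18069052 to 19451818 per library, at which 1 count was worth about 0.0514 to 0.0553 CPM, a unit that scales counts to a common library size. Levels below are CPM after scaling by the trimmed mean of M values (TMM), with SDs over 4 libraries a condition, and fold changes come from edgeR's quasi-likelihood test over all tested genes with line as a covariate. Summed CPM of 8 listed neural stem cell and astroglial markers ran from 7325 to 7965 in EGF/FGF, from 10102 to 11254 in BMP and from 12993 to 13481 in BMP/FGF. These markers did not move together. Nes (498 to 625, 116 to 141 and 112 to 119 CPM in that order of conditions) was highest in EGF/FGF. So was Fabp7 (2185 to 2596, 277 to 665 and 1239 to 1528 CPM), while the other markers of the list were lowest in EGF/FGF. Summed neuronal markers (5 genes) ran from 13.1 to 17.9, from 302 to 610 and from 93.9 to 103 CPM in that order, and oligodendrocyte markers (5 genes) from 25.4 to 29.8, from 155 to 182 and from 256 to 266 CPM. Endothelial markers (3 of 5 in the table) summed to 1.56 to 4.32 CPM and fibroblast markers (4 of 5) to 2.02 to 2.98 CPM over all libraries. A list of plasmacytoid dendritic cell and lymphocyte markers (3 of 5 in the table) ran from 3.98 to 8.11, from 8.66 to 13.4 and from 33.8 to 37.8 CPM, nearly all of it Bst2, itself interferon-induced, while Siglech and Nkg7 reached at most 0.168 CPM. The cultures therefore differed in marker content between conditions, and its part in the results below was not tested. In bulk RNA a change in the number of expressing cells and a change in RNA per cell cannot be told apart.

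**Figure D1:**
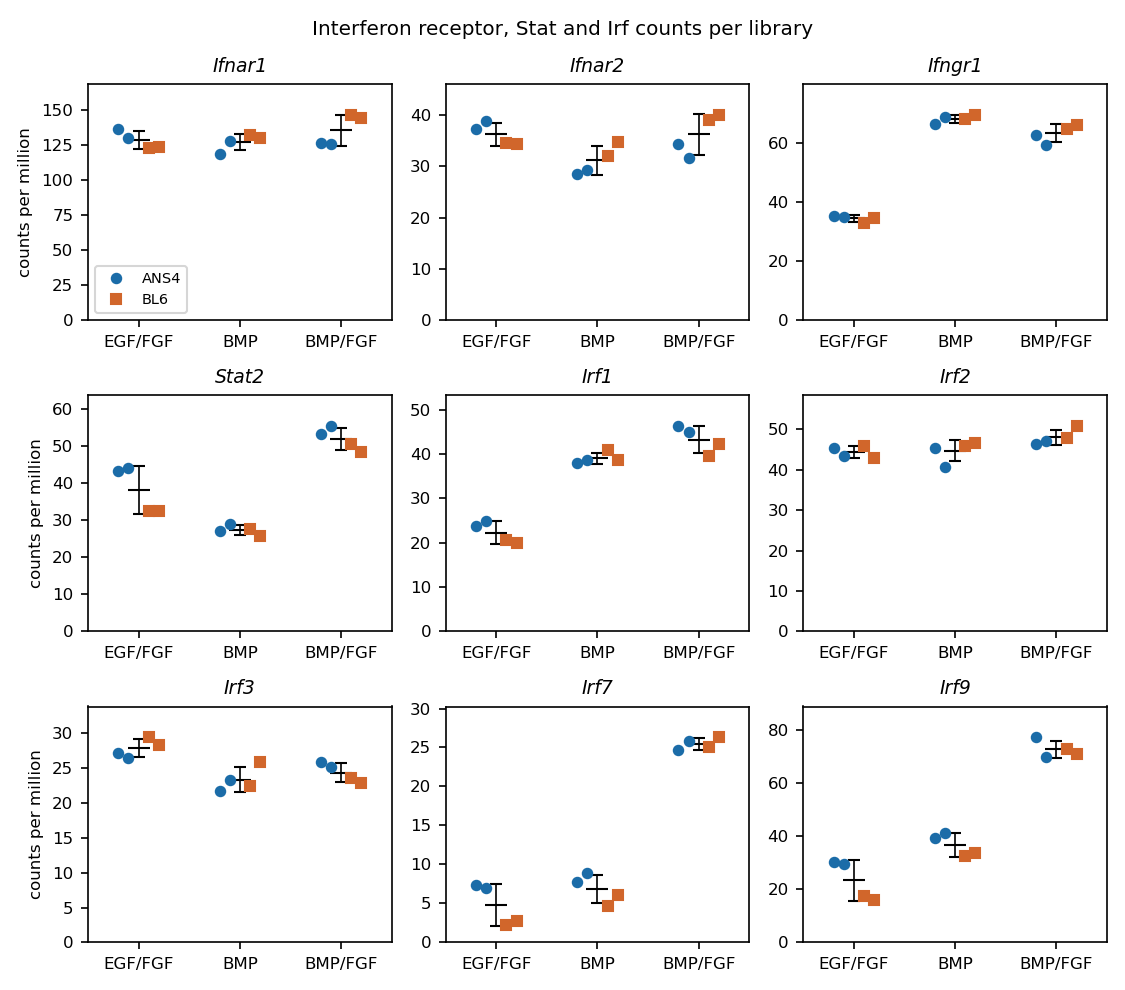
Level of each gene in every library (y axis, CPM after TMM scaling, from 0) by culture condition (x axis), with ANS4 as blue circles, BL6 as orange squares, and the mean ± SD of 4 libraries in black. Irf7 and Irf9 stand highest in BMP/FGF, Ifngr1 and Irf1 are high in both quiescent conditions, Stat2 is lowest in BMP, and Ifnar1 and Irf2 lie close together across conditions.

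In BMP against EGF/FGF, 7 of the 9 genes passed the test at an adjusted p under 0.05, 4 of them higher and 3 lower, where 79.6% of all tested genes passed. As higher 40.8% passed and as lower 38.8%. None of the 7 exceeded the study's log2 threshold of 1.5, which 17.8% of all genes did. In BMP/FGF against EGF/FGF, 6 passed (5 higher and 1 lower), against 78.9% of all genes (40.9% higher and 38.0% lower), and 2 of these, Irf7 and Irf9, exceeded 1.5, as 16.7% of all genes did. In BMP/FGF against BMP, 4 passed, all higher, where 41.4% of all genes passed and 20.1% passed as higher and 21.3% as lower. Irf7 alone exceeded 1.5 there, a size reached by 1.59% of all genes. No member passed as lower in BMP/FGF than in BMP by edgeR, at an unadjusted p under 0.05 either, or by limma. Ifngr1 did lie lower there, at log2 -0.11 ± 0.06 with ranges that did not overlap. DESeq2 called 0 lower after adjustment and 1, Ifngr1, at an unadjusted p under 0.05. With libraries scaled by size alone, Ifngr1 passed as lower. With both directions counted together, the shares of members passing against EGF/FGF were no higher than those of all genes, while 4 and 5 of 9 passed as higher beside 40.8% and 40.9% of all genes. The genes differed from each other in pattern, as described by role below.

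Of the receptor chains, Ifngr1, the ligand-binding chain for interferon gamma, was higher in both quiescent conditions. In EGF/FGF it stood at 35.5 and 35.1 CPM in ANS4 and at 32.8 and 34.7 CPM in BL6. In BMP the values were 66.5 and 68.8 CPM in ANS4 and 68.2 and 69.4 CPM in BL6, and in BMP/FGF 62.9, 59.3, 64.8 and 66.3 CPM in the same order. Every quiescent library lay above every EGF/FGF library, and the ranges of BMP and BMP/FGF also did not overlap, BMP being the higher. Ifngr1 rose 1.98-fold in BMP (log2 0.98 ± 0.06 SE, edgeR adjusted p = 3.89e-11) and 1.83-fold in BMP/FGF (log2 0.87 ± 0.06, edgeR adjusted p = 2.23e-10). The difference between BMP/FGF and BMP was -0.11 ± 0.06 on the log2 scale and did not pass (edgeR adjusted p = 0.143), although it passed when libraries were scaled by size alone (-0.15, edgeR adjusted p = 0.0385).

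Ifnar1, a signalling chain of the type I receptor, passed in none of the 3 comparisons of conditions. Its levels were 137, 130, 123 and 124 CPM in EGF/FGF (ANS4 libraries first, then BL6), 119, 128, 132 and 130 CPM in BMP, and 127, 126, 147 and 145 CPM in BMP/FGF. The conditions overlapped, and the 95% interval of the log2 difference ran from -0.14 to 0.11 in BMP and from -0.05 to 0.20 in BMP/FGF, both against EGF/FGF. By line, BMP/FGF against EGF/FGF did pass in BL6 (log2 0.22 ± 0.07, edgeR adjusted p = 0.00994), where both BMP/FGF libraries lay above both EGF/FGF libraries, and had -0.08 ± 0.06 in ANS4 (edgeR adjusted p = 0.229). Ifnar2, the chain that binds type I interferon most tightly, had 37.3, 38.8, 34.5 and 34.3 CPM in EGF/FGF, 28.4, 29.3, 32.1 and 34.8 CPM in BMP, and 34.4, 31.5, 39.1 and 39.9 CPM in BMP/FGF. Its ranges also overlapped between all conditions. Ifnar2 fell by 0.22 on the log2 scale in BMP (SE 0.08, edgeR adjusted p = 0.0196) and rose by 0.22 from BMP to BMP/FGF (SE 0.08, edgeR adjusted p = 0.0434). By line, the difference in BMP was -0.40 ± 0.08 in ANS4 and -0.05 ± 0.09 in BL6 (edgeR adjusted p = 0.598), and the gap between the lines did not pass (0.36 ± 0.11, edgeR adjusted p = 0.0607). The fall in BMP did not pass without ANS4 EGF/FGF replicate 1 (-0.19), without ANS4 EGF/FGF replicate 2 (-0.17) or without ANS4 BMP replicate 1 (-0.20), nor by limma on the deposited regularised log2 values (-0.10, limma adjusted p = 0.231). Between BMP/FGF and EGF/FGF Ifnar2 did not pass over both lines, while by line it fell by 0.21 in ANS4 (SE 0.08, edgeR adjusted p = 0.0246) and had 0.19 ± 0.09 in BL6 (edgeR adjusted p = 0.0757). The rise to BMP/FGF passed in 9 of 22 alternative settings. Of single libraries, it needed both ANS4 BMP, both BL6 BMP/FGF, the first ANS4 BMP/FGF and the first BL6 BMP libraries, with values from 0.18 to 0.22 where 1 of these was left out.

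Of the receptor chains outside the 9 genes, Ifngr2, the second chain for interferon gamma, rose alongside Ifngr1, by 0.70 ± 0.07 on the log2 scale in BMP and 0.67 ± 0.07 in BMP/FGF. Il10rb, shared by the receptors of interleukin 10 and interferon lambda, rose by 0.33 ± 0.09 in BMP and by 0.64 ± 0.09 in BMP/FGF against EGF/FGF, and by 0.31 ± 0.09 from BMP to BMP/FGF. Ifnlr1, the lambda-specific chain, had too few counts to be tested. Of 21 listed interferon ligand genes only Ifnz and Ifnk were in the table and neither passed the filter, with at most 17 counts in a library and 73 counts over all libraries together.

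Stat2, the Stat partner of Irf9 in ISGF3, moved in opposite directions in the 2 quiescent conditions. In EGF/FGF it had 43.3 and 44.1 CPM in ANS4 and 32.5 CPM in both BL6 libraries. BMP gave 27.1, 28.9, 27.5 and 25.7 CPM, and BMP/FGF 53.2, 55.2, 50.4 and 48.3 CPM, ANS4 first. All 3 conditions were separate, BMP the lowest and BMP/FGF the highest. Stat2 was 1.39-fold lower in BMP than in EGF/FGF (log2 -0.47 ± 0.08, edgeR adjusted p = 1.85e-05) and 1.37-fold higher in BMP/FGF than in EGF/FGF (log2 0.45 ± 0.07, edgeR adjusted p = 2.17e-05). From BMP to BMP/FGF it rose 1.89-fold (log2 0.92 ± 0.08, edgeR adjusted p = 6.03e-08), by 0.95 in ANS4 and 0.89 in BL6. Every call on Stat2 kept its direction and its side of the threshold in 66 of 66 alternatives.

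Irf9, the DNA-binding part of ISGF3, rose stepwise from EGF/FGF through BMP to BMP/FGF. EGF/FGF libraries had 30.2 and 29.5 CPM in ANS4 and 17.5 and 16.0 CPM in BL6. BMP libraries had 39.5, 41.2, 32.3 and 33.5 CPM, and BMP/FGF libraries 77.2, 69.7, 72.6 and 71.0 CPM. No condition overlapped another, and the lines stood apart in EGF/FGF and BMP but not in BMP/FGF. The rise was 1.60-fold in BMP (log2 0.68 ± 0.12, edgeR adjusted p = 4.32e-05) and 2.00-fold from BMP to BMP/FGF (log2 1.00 ± 0.11, edgeR adjusted p = 2.1e-06), which made 3.20-fold from EGF/FGF to BMP/FGF (log2 1.68 ± 0.12, edgeR adjusted p = 3.12e-10). Irf9 also kept every call in 66 of 66 alternatives.

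Irf7, a master activator of type I interferon genes, had the largest fold changes of the 9 genes in both comparisons with BMP/FGF. In EGF/FGF it had 7.35 and 6.93 CPM in ANS4 and 2.24 and 2.69 CPM in BL6 (142, 134, 43 and 52 counts). BMP libraries had 7.73, 8.91, 4.67 and 6.10 CPM, and BMP/FGF libraries 24.7, 25.8, 25.0 and 26.3 CPM. BMP/FGF lay far above both other conditions, while the ranges of BMP and EGF/FGF overlapped, ANS4 lying above BL6 in each. Irf7 rose 3.83-fold from BMP to BMP/FGF (log2 1.94 ± 0.20, edgeR adjusted p = 6.72e-07) and 5.58-fold from EGF/FGF to BMP/FGF (log2 2.48 ± 0.21, edgeR adjusted p = 3.65e-09). Its rise in BMP was smaller (log2 0.54 ± 0.23, edgeR adjusted p = 0.0361). By line, the log2 difference in BMP was 1.11 ± 0.19 in BL6 (edgeR adjusted p = 0.000141) against 0.22 ± 0.13 in ANS4 (edgeR adjusted p = 0.128). The rise in BMP did not pass in 8 of 22 alternatives, with values from 0.22 to 0.59. The libraries on which it depended were ANS4 BMP replicate 2 (0.48 without it), BL6 BMP replicate 2 (0.50), BL6 EGF/FGF replicate 1 (0.36) and BL6 EGF/FGF replicate 2 (0.41).

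**Figure D2:**
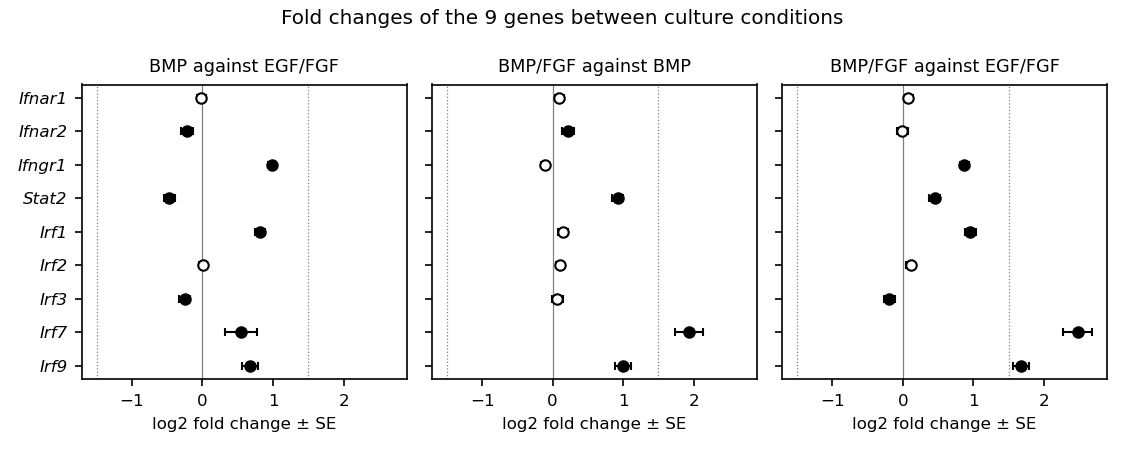
Log2 fold change ± SE (x axis) of each gene (y axis) in 3 comparisons of conditions, from edgeR with line as a covariate. Filled points passed at an adjusted p under 0.05, open points did not, and dotted lines mark the study's threshold of 1.5 in either direction. Irf7 at 1.94 and 2.48 and Irf9 at 1.68 lie beyond the line on the higher side.

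Irf1, whose own gene is a classic target of interferon gamma, was like Ifngr1 higher in both quiescent conditions. It had 23.8, 25.0, 20.5 and 19.8 CPM in EGF/FGF, 38.0, 38.5, 40.8 and 38.6 CPM in BMP, and 46.2, 45.0, 39.5 and 42.3 CPM in BMP/FGF. Both quiescent conditions lay above EGF/FGF and overlapped each other. Irf1 rose 1.76-fold in BMP (log2 0.81 ± 0.07, edgeR adjusted p = 1.24e-08) and 1.94-fold in BMP/FGF (log2 0.96 ± 0.07, edgeR adjusted p = 1.32e-09). Between the quiescent conditions it differed by 0.15 ± 0.07, which did not pass (edgeR adjusted p = 0.114). It did pass in ANS4 alone (0.25, edgeR adjusted p = 0.0132) and without BL6 BMP replicate 1 (0.19, edgeR adjusted p = 0.0443).

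Irf2, which can antagonise Irf1, passed in none of the 3 comparisons. Its levels ran from 43.0 to 45.9 CPM in EGF/FGF, from 40.8 to 46.6 CPM in BMP and from 46.3 to 50.8 CPM in BMP/FGF. The BMP/FGF range lay wholly above that of EGF/FGF, with a log2 difference of 0.11 ± 0.06 (edgeR adjusted p = 0.108) and a 95% interval from -0.01 to 0.23. Irf3 had 27.1, 26.5, 29.4 and 28.3 CPM in EGF/FGF, 21.7, 23.3, 22.4 and 25.9 CPM in BMP, and 25.9, 25.2, 23.5 and 22.8 CPM in BMP/FGF. All EGF/FGF libraries were above all libraries of each quiescent condition, which overlapped each other. Irf3 fell by 0.25 on the log2 scale in BMP (SE 0.08, edgeR adjusted p = 0.00583) and by 0.19 in BMP/FGF (SE 0.08, edgeR adjusted p = 0.0305). The fall in BMP/FGF did not pass in ANS4 alone (-0.07) or without any 1 of the BL6 EGF/FGF or BL6 BMP/FGF libraries, where it ran from -0.19 to -0.15.

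Counting genes whose 4 libraries in one condition did not overlap the 4 in the other gave 5 of 9 in BMP against EGF/FGF (71.1% of all tested genes), 7 in BMP/FGF against EGF/FGF (75.8%) and 4 in BMP/FGF against BMP (35.6%). The 4 in the last comparison were Ifngr1, on the lower side (18.0% of all genes), and Stat2, Irf7 and Irf9, on the higher side (17.6%).

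Of the other Irf genes, Irf5 and Irf8, factors best known from immune cells, rose from very low counts in both quiescent conditions. Irf5 had 5 to 9 counts per library in EGF/FGF, rising to 35 to 55 counts with BMP and to 34 to 47 counts with BMP/FGF. Irf8 had 8 to 11, 50 to 65 and 41 to 60 counts in the same order. For each gene EGF/FGF was separate from both quiescent conditions, which overlapped. In BMP the rise was 2.62 ± 0.25 for Irf5 and 2.64 ± 0.22 for Irf8 on the log2 scale. Neither passed between BMP/FGF and BMP, with -0.08 ± 0.18 for Irf5 and -0.14 ± 0.17 for Irf8. Of the 12 listed microglial and macrophage markers 6 were in the table, and their summed level was 13.0 to 18.9 CPM in EGF/FGF, 5.81 to 7.56 CPM in BMP and 9.38 to 12.02 CPM in BMP/FGF. Its members did not move together: Itgam (8.16 to 12.8, 3.04 to 3.94 and 4.74 to 5.93 CPM in that order of conditions) and Cd68 (at least 3.46, at most 1.88 and at most 2.96 CPM) were highest in EGF/FGF, whereas P2ry12 ran from 0.827 to 1.87 CPM in EGF/FGF, stood at 1.87 to 2.60 CPM with BMP alone and spread from 1.17 to 3.34 CPM in BMP/FGF. Csf1r was at 0 in every BMP library and reached at most 0.103 CPM elsewhere, Tmem119 at most 0.224 CPM and Cx3cr1 at most 0.517 CPM. The part of such cells in the rise of Irf5 and Irf8 was not tested. Irf4 (at most 6 counts) was not tested.

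Levels of different genes can be set side by side only per length. Divided by the mean length of each gene's annotated transcripts, Ifnar1 was highest in every condition, with 71.8 ± 3.6, 71.1 ± 3.3 and 75.9 ± 6.2 CPM per kb (SD, n = 4) in EGF/FGF, BMP and BMP/FGF. Ifngr1 was in the third place in EGF/FGF (33.0 ± 1.1 CPM per kb) and in the second in BMP (65.2 ± 1.2) and BMP/FGF (60.5 ± 2.9), although by longest transcript it was second in all 3. Irf7 was last in all conditions, at 3.61 ± 2.04, 5.15 ± 1.40 and 19.1 ± 0.6 CPM per kb. Irf9 had 11.9 ± 3.9, 18.7 ± 2.2 and 37.0 ± 1.7 CPM per kb, and in BMP/FGF its range overlapped that of Irf1, its neighbour in the order at 38.4 ± 2.7. The other neighbours whose ranges overlapped were Ifnar2 with Stat2 and Stat2 with Irf1 in EGF/FGF, Ifnar2 with Irf9 in BMP, and Irf2 with Irf1 and Irf3 with Ifnar2 in both quiescent conditions. With the longest transcript in place of the mean length, Ifnar1 remained first and Irf7 last, but the range of Ifnar1 (30.4 to 33.9 CPM per kb) overlapped that of Ifngr1 (31.5 to 32.9) in BMP, and the places of the genes between them changed.

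The lines differed in 3 genes while proliferating. In EGF/FGF, BL6 was lower than ANS4 by a log2 difference of -1.53 ± 0.17 for Irf7 (edgeR adjusted p = 3.83e-05), -0.83 ± 0.09 for Irf9 (edgeR adjusted p = 1.97e-05) and -0.43 ± 0.08 for Stat2 (edgeR adjusted p = 0.00279). These are 3 of 9 genes, where 6.75% of all tested genes differed between the lines in EGF/FGF and 3.84% were lower in BL6. In BMP, 2 of 9 differed, Irf7 at -0.63 ± 0.15 (edgeR adjusted p = 0.00472) and Irf9 at -0.29 ± 0.08 (edgeR adjusted p = 0.0133), against 23.0% of all genes, 10.8% being lower in BL6. Without ANS4 BMP replicate 2 neither passed in BMP (Irf7 at -0.52 and Irf9 at -0.26). In BMP/FGF, edgeR called 0 of 9, against 0.736% of all genes, with Irf7 at 0.02 ± 0.10, Irf9 at -0.03 ± 0.07 and Stat2 at -0.14 ± 0.07. At an unadjusted p under 0.05 there were 2 in BMP/FGF, Ifnar1 and Ifnar2, and DESeq2 and limma each called 0 after adjustment.

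**Figure D3:**
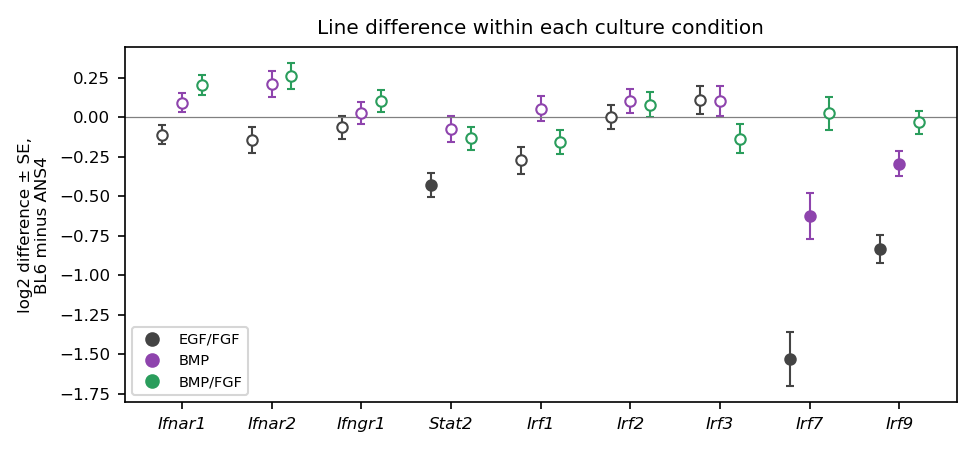
Log2 difference ± SE between the lines (y axis, BL6 minus ANS4) for each gene (x axis) within EGF/FGF (grey), BMP (purple) and BMP/FGF (green), 2 libraries a line in each. Filled points passed at an edgeR adjusted p under 0.05. Irf7 stands at -1.53, -0.63 and 0.02 and Irf9 at -0.83, -0.29 and -0.03 in that order of conditions.

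The response of Irf7 and Irf9 to the conditions differed between the lines. This restates the line differences above, since it is the change of the line difference from one condition to another. From EGF/FGF to BMP/FGF, Irf7 rose 10.3-fold in BL6 (log2 3.37 ± 0.16) and 3.54-fold in ANS4 (log2 1.82 ± 0.11), a difference of 1.56 ± 0.20 (edgeR adjusted p = 0.000248). Irf9 rose 4.25-fold in BL6 and 2.46-fold in ANS4, a difference of 0.80 ± 0.12 (edgeR adjusted p = 0.000743). Both lines ended at like levels in BMP/FGF, 25.2 ± 0.8 CPM in ANS4 and 25.7 ± 0.9 CPM in BL6 for Irf7 (SD, n = 2), and 73.5 ± 5.3 and 71.8 ± 1.2 CPM for Irf9. Ifnar1 and Ifnar2 also passed in this comparison, with differences of 0.31 ± 0.09 (edgeR adjusted p = 0.0432) and 0.41 ± 0.11 (edgeR adjusted p = 0.0469), which makes 4 of 9 genes, against 4.98% of all genes. Ifnar1 passed in 7 and Ifnar2 in 4 of 19 alternatives, whereas Irf7 and Irf9 passed in 19 of 19. Leaving out any 1 library ended the call on Ifnar1 except ANS4 BMP replicate 2 and both BL6 BMP libraries, and that on Ifnar2 except both BL6 BMP libraries. Where they did not pass for want of 1 library, the differences ran from 0.28 to 0.35 for Ifnar1 and from 0.34 to 0.46 for Ifnar2.

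From EGF/FGF to BMP the lines differed in 2 of 9 genes, against 9.02% of all genes. These were Irf7 (0.90 ± 0.23, edgeR adjusted p = 0.0202) and Irf9 (0.54 ± 0.12, edgeR adjusted p = 0.00925), both more positive in BL6. The call on Irf7 was lost without ANS4 EGF/FGF replicate 1 (0.86), ANS4 BMP replicate 1 (0.80), BL6 EGF/FGF replicate 1 (0.78) or BL6 BMP replicate 2 (0.70), and that on Irf9 without BL6 EGF/FGF replicate 2 (0.47). From BMP to BMP/FGF they differed in 1 of 9, against 13.5% of all genes. That gene was Irf7, which rose by 2.25 ± 0.14 in BL6 and 1.60 ± 0.11 in ANS4 on the log2 scale, a difference of 0.65 ± 0.18 (edgeR adjusted p = 0.0228). It passed in 11 of 19 alternatives and did not pass without either ANS4 BMP/FGF library, either BL6 BMP/FGF library, ANS4 BMP replicate 2 or BL6 BMP replicate 1 (0.47 to 0.68). Stat2 did not pass in any of these differences, the closest being 0.35 ± 0.11 from EGF/FGF to BMP (edgeR adjusted p = 0.056).

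Around the 9 genes, the Janus kinases were split. Against EGF/FGF in BMP, Jak1 (log2 0.63 ± 0.06) and Jak3 (0.81 ± 0.16) rose, and Jak2 (-0.33 ± 0.06) and Tyk2 (-0.33 ± 0.09) fell. Of all genes, 40.8% rose and 38.8% fell there. Tyk2, the kinase bound to Ifnar1, was the only 1 of 4 to pass between BMP/FGF and BMP (0.25 ± 0.09), where 41.4% of all genes passed. It did not pass there by DESeq2 or with libraries scaled by size alone.

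Of 5 Stat genes examined, Stat2 included, 3 rose and 1 fell in BMP (79.6% of all genes passed), and 2 rose and 1 fell from BMP to BMP/FGF (41.4% passed). Stat3, the main Stat of the interleukin 6 family, rose by 0.43 ± 0.06 in BMP and by 0.21 ± 0.06 from BMP to BMP/FGF. Stat5a rose in BMP (1.08 ± 0.15) and had 0.04 ± 0.13 between the quiescent conditions, and Stat5b rose in BMP (0.30 ± 0.08) and was the one that fell from BMP to BMP/FGF (-0.22 ± 0.08). Of the 7 tested Irf genes, members included, 5 rose and 1 fell in BMP (40.8% and 38.8% of all genes), and 2 rose from BMP to BMP/FGF (20.1% of all genes).

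Among 13 partners and kinases of the Irf factors, 9 rose and 3 fell in BMP, where 40.8% and 38.8% of all genes did. From BMP to BMP/FGF 1 rose and 6 fell, where 20.1% and 21.3% of all genes did. Ikbke, a kinase that phosphorylates Irf3 and Irf7, rose most in BMP (2.81 ± 0.18) and fell by 0.38 from BMP to BMP/FGF (SE 0.14). The coactivators Crebbp (0.55 ± 0.08) and Ep300 (0.40 ± 0.06) rose in BMP and fell from BMP to BMP/FGF (-0.50 ± 0.08 and -0.48 ± 0.06). Against EGF/FGF in BMP/FGF neither passed (0.05 ± 0.08 and -0.08 ± 0.06), nor did Irf2bp2 (-0.10 ± 0.07), a corepressor that binds Irf2. Irf2bp2 rose by 0.31 in BMP (SE 0.07) and fell by 0.41 from BMP to BMP/FGF (SE 0.07). Myd88, an adaptor upstream of Irf7, was the 1 that rose there (0.28 ± 0.10). Tbk1, the close relative of Ikbke, fell by 0.24 in BMP (SE 0.08). Against EGF/FGF in BMP/FGF, 3 of 13 rose and 3 fell (40.9% and 38.0% of all genes), with Traf3 at -0.49 ± 0.08.

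Of 14 negative regulators, 6 rose and 4 fell in BMP (40.8% and 38.8% of all genes), and 3 rose and 7 fell from BMP to BMP/FGF (20.1% and 21.3% of all genes). Usp18, which displaces Jak1 from Ifnar2, rose by 0.83 ± 0.23 in BMP and by 2.56 ± 0.20 from BMP to BMP/FGF. Socs3 rose by 1.53 ± 0.13 in BMP and fell by 0.33 from BMP to BMP/FGF (SE 0.12), whereas Socs1 rose by 0.39 ± 0.15 in the latter. Sh2b3, an adaptor that restrains cytokine receptors, fell by 0.86 in BMP (SE 0.08) and by 0.40 from BMP to BMP/FGF (SE 0.09).

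Genes known to depend on ISGF3 and those known to depend on GAS elements or Irf1 were mostly higher in both quiescent conditions. Of 30 tested ISGF3-type targets, 19 rose and 4 fell in BMP (40.8% and 38.8% of all genes), with a median log2 fold change of 0.76, and all 30 rose from BMP to BMP/FGF (20.1% of all genes, and 29 of the 30 with libraries scaled by size alone), with a median of 1.82. Of 22 tested GAS-type and Irf1 targets, 19 rose and 0 fell in BMP, with a median of 1.56, and 21 rose from BMP to BMP/FGF, with a median of 0.97. The medians over all tested genes were 0.0192 and -0.00355 in these comparisons. Both lists were drawn up with earlier results of these data known. The ISGF3-type list holds genes that the study had named from its own RNA sequencing, among them Oasl2, Mx2, Bst2, Rsad2, Ifit1, Ifit3 and Ifi44. These list counts are therefore a description and no independent test of a rise in such genes. The 4 ISGF3-type targets that fell in BMP were Eif2ak2 (-0.30 ± 0.09), Trim25 (-1.32 ± 0.25), Oasl1 (-2.45 ± 0.27) and Ifi27l2a (-1.23 ± 0.22), of which the last 3 averaged under 3 CPM in both conditions. In BMP/FGF against EGF/FGF, 29 of 30 and 22 of 22 rose, where 40.9% of all genes did, the exception being Oasl1 (-0.78 ± 0.22).

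Ifit3 and Ifit3b, interferon-induced antiviral proteins with tetratricopeptide repeats, rose by 3.21 ± 0.25 and 3.47 ± 0.24 in BMP, and Uba7, the activating enzyme for Isg15, rose by 3.44 ± 0.20. The largest ISGF3-type rises from BMP to BMP/FGF were those of Ifi27l2a (3.87 ± 0.18), Mx1 (3.07 ± 0.48) and Ifi44 (2.81 ± 0.19), and Mx1 averaged only 1.29 CPM in BMP/FGF. Of the GAS-type list, the guanylate-binding proteins Gbp5 (4.27 ± 0.12) and Gbp2 (3.46 ± 0.19) led in BMP, together with the chemokine Cxcl9 (3.21 ± 0.71), which averaged under 0.3 CPM there. From BMP to BMP/FGF the largest were Cxcl9 (2.67 ± 0.31), Iigp1 (2.35 ± 0.16) and Gbp7 (1.89 ± 0.06). Neither list holds any of the 9 genes.

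**Figure D4:**
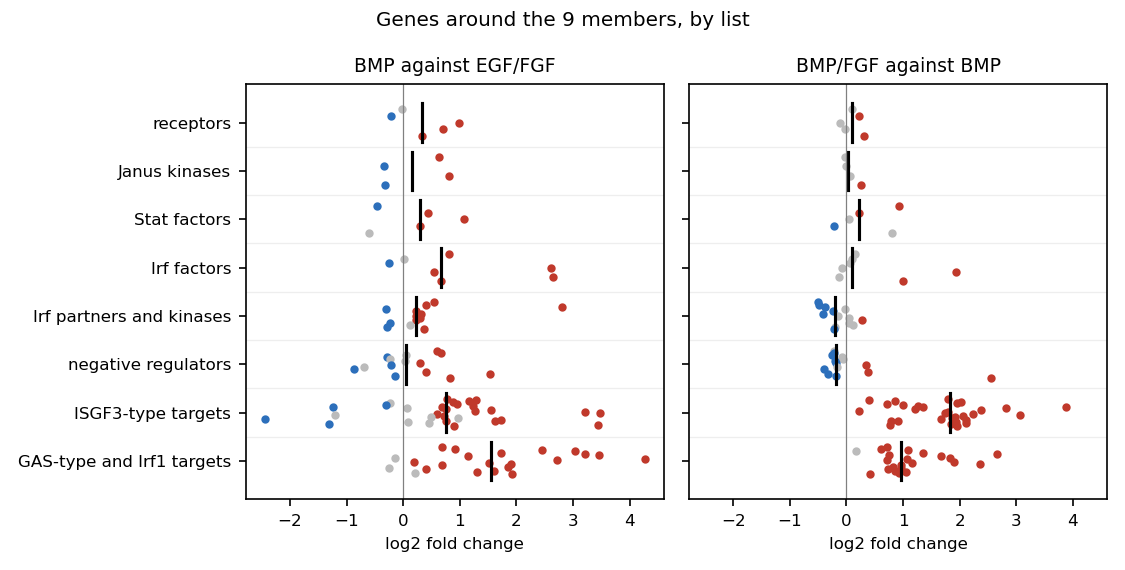
Log2 fold change (x axis) of every tested gene in 8 lists (y axis, members included) in BMP against EGF/FGF (left) and in BMP/FGF against BMP (right). Red points rose and blue points fell at an edgeR adjusted p under 0.05, grey points did not pass, and black bars are list medians, which for ISGF3-type targets lie at 0.76 and 1.82 and for GAS-type and Irf1 targets at 1.56 and 0.97.

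Over the 12 libraries, which share conditions and lines, log2 CPM of Irf7 and Irf9 ran closely together (r = 0.978), as did that of Ifngr1 and Irf1 (r = 0.942), while Ifngr1 and Irf3 ran opposite (r = -0.826). Leaving out the 9 genes themselves and those that averaged below 1 CPM, the profiles most like Irf7 were those of Rtp4 (r = 0.993), Usp18 (0.987) and Npas3 (0.985). For Irf9 they were Irgm1 (0.996), Oasl2 (0.993) and Ifit1 (0.993), and for Stat2 Rasgef1c (0.972), Nudt2 (0.967) and Acss2 (0.962). Irak2 (0.998), Phyhd1 (0.997) and Itih3 (0.997) were most like Ifngr1, and Ldhd (0.994), 2610035D17Rik (0.992) and Caskin1 (0.991) most like Irf1. The 3 nearest genes were less close for Ifnar1 (Rap2a at 0.855, Smurf2 and Sept4), Irf2 (Cdc42ep2 at 0.855, Znrd1as and Sgms2), Ifnar2 (Ier3 at 0.909, Gfra1 and Adamtsl4) and Irf3 (Slx4 at 0.947, Necap1 and Ppp1r18). These values describe 12 libraries with a strong condition structure, and no relation between the genes was tested.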

How the data were processed

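Estimated counts per gene were deposited as whole numbers for 17365 genes, alongside regularised log2 values of the same libraries. Per the labels, the authors trimmed reads with Trim Galore 0.5.0, quantified them with kallisto 0.44.0 on mm10 and used DESeq2 1.27.32. The recomputed regularised log2 values differed from those deposited by a median of 0.00793. Genes were filtered with filterByExpr by condition, and 13312 stayed. Counts were scaled by TMM (factors from 0.972 to 1.03) and tested with edgeR 4.0.16 in R 4.3.3 by the quasi-likelihood F test, with condition and line as terms and Benjamini-Hochberg adjustment over all tested genes at 0.05. Line differences used a model of the 6 line and condition means. CPM is the count over the TMM-scaled sum of tested genes. Replicates differed beyond sampling noise, so none was merged. They differed most in BL6 BMP, with a chi-square per gene of 12.5 against 2.14 to 4.77 in the other groups. DESeq2 1.42.0 on the counts and limma 3.58.1 on the deposited log2 values were alternatives, and the procedure was tested on simulated counts. Gene positions came from GENCODE vM21, and promoter sequence from RefSeq. From each list, up to 3 non-members with the largest change that passed in each comparison were named, together with the 3 genes most like each member. Other genes named (Ifnlr1, Ifnz, Ifnk, Irf4, Tbk1, the targets that fell in BMP) were picked after their values were seen. The 9 genes and the lists were chosen with earlier results of these data known. Some genes of the lists are not reported here and were left out of the list counts.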

Additional observations from a re-analysis of the deposited data

Results flagged for a closer look

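The response to culture conditions differed between the lines by an interaction term in 7 cases, all more positive in BL6 than in ANS4 (log2 differences, BL6 minus ANS4). For Irf7 the difference was 0.904 from EGF/FGF to BMP, 1.56 from EGF/FGF to BMP/FGF and 0.652 from BMP to BMP/FGF. For Irf9 it was 0.54 from EGF/FGF to BMP and 0.801 from EGF/FGF to BMP/FGF. For the receptor chains it was 0.314 for Ifnar1 and 0.406 for Ifnar2, both from EGF/FGF to BMP/FGF. The alternatives included DESeq2 and limma beside edgeR. Over them the adjusted p (edgeR, DESeq2 or limma) ran from 1.42e-06 to 0.00775 for Irf7 from EGF/FGF to BMP/FGF. In that comparison it ran from 0.00716 to 0.177 for Ifnar1 and from 0.0121 to 0.203 for Ifnar2. These comparisons share libraries, so the 7 cases are not independent.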

How the results depend on the processing

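Of 594 values (9 genes, 3 comparisons, 22 alternatives), 539 kept their direction and call, 31 lost a call, 5 gained one and 19 changed sign, none of these signs belonging to a change that had passed. The number of members called moved by no more than 1.5 times in any alternative. Without 1 library it ran from 6 to 7 in BMP against EGF/FGF, from 5 to 6 in BMP/FGF against EGF/FGF and from 3 to 4 in BMP/FGF against BMP.

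Changes of sign came from log2 fold changes near 0. For Ifnar1 in BMP they were 0.00204 with library size only and 0.0737 in BL6 alone, and without 1 library values ran from -0.0504 to 0.0301. For Irf2 in BMP they were -0.00387 on the regularised log2 values, -0.00013 with no filter and -0.0431 in ANS4 alone, and without 1 library from -0.0205 to 0.0438. For BMP/FGF against EGF/FGF they were -0.0798 for Ifnar1 in ANS4 alone and, for Ifnar2, 0.128 on the regularised log2 values, 0.186 in BL6 alone (against -0.207 in ANS4 alone, which passed) and from -0.0566 to 0.0514 without 1 library. Irf3 from BMP to BMP/FGF had -0.0591 in BL6 alone.

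Members with a line difference were fewer or more in several settings. In BMP against EGF/FGF they were 4 with library size only, 1 with only the 8 libraries compared and 1 to 3 without 1 library. In BMP/FGF against EGF/FGF they were 2 with library size only, 2 with no filter and 2 to 4 without 1 library. In BMP/FGF against BMP they were 0 by DESeq2, 0 by limma and 0 to 1 without 1 library. Without 1 library, members differing between lines numbered 3 to 4 in EGF/FGF, 0 to 3 with BMP and 0 to 1 with BMP/FGF, alternatives that were chosen after seeing the data. The causes were not tested.

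Libraries with the same replicate number were treated as unpaired. Correlations of replicate differences between conditions ran from -0.0711 to 0.0529, which cannot show whether such libraries shared a culture or day. With a replicate block, members called were 7, 6 and 3 in BMP against EGF/FGF, BMP/FGF against EGF/FGF and BMP/FGF against BMP, genes called were 10399, 10325 and 5025, and line differences were 2, 2 and 1. Members differing between the lines within BMP were 1 with the block.

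From BMP to BMP/FGF the rising receptors were 1 with library size only, 1 with no filter and 1 by DESeq2, and the falling receptors 1 with library size only. Rising Janus kinases were 0 with library size only and 0 by DESeq2, and rising Irf partners 0 with library size only. By longest transcript, places were 2 for Ifngr1, 3 for Irf3, 4 for Ifnar2, 5 for Irf2, 6 for Irf1 and 7 for Stat2 in EGF/FGF, 3 for Irf1, 4 for Irf3 and 5 for Irf2 in BMP, and 3 for Irf1, 4 for Irf9, 5 for Irf2, 6 for Irf3, 7 for Ifnar2 and 8 for Stat2 in BMP/FGF, a choice made after seeing the data.

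The fall of Irf3 in BMP passed in 22 of 22 alternatives. Counts of the ligands and of Irf4 were too low to test.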
